A study of Mus musculus with 16 samples.

Results

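Messenger RNA of 32 genes for the uptake and oxidation of fatty acids was followed in mouse hearts with and without Armh4, at 8 weeks and at 25 months. The genes were taken by symbol from the deposited count table, which lists 18346 genes, and all 32 were found and passed the filter on low counts, among 13373 genes tested. Bulk RNA sequencing was done on 16 dissected hearts in 4 groups of 4. The groups were hearts of systemic Armh4 knockout (KO) mice at 25 months (aged KO), wild-type (WT) mice at 25 months (aged WT), KO mice at 8 weeks (young KO) and WT mice at 8 weeks (young WT). WT animals were described as C57BL/6J, all groups had normal food and a 12-hour light and dark cycle, and the knockout was of the whole body, so no cell type of the heart kept the gene by design. The study's design text calls the 4 hearts of a group independent, and takes them from at least 6 mice. The hour of collection, feeding before collection, and any batch are not given in the sources used here. Each heart is named by its group and animal number, and values of single hearts run in the order KO_Aged_114, KO_Aged_115, KO_Aged_122 and KO_Aged_125, then WT_Aged_1, WT_Aged_4, WT_Aged_5 and WT_Aged_12, then KO_Young_27, KO_Young_31, KO_Young_38 and KO_Young_53, and then WT_Young_29, WT_Young_34, WT_Young_39 and WT_Young_42.

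The adult heart draws most of its energy from fatty acids. Lipoprotein lipase on the capillary wall frees them from circulating triglyceride, membrane and cytosolic carriers bring them in, and they are joined to coenzyme A and handed over to carnitine to cross into the mitochondria. There the beta-oxidation spiral shortens the chain, electron transfer flavoprotein passes the electrons to the respiratory chain, and kinases of pyruvate dehydrogenase hold back the use of glucose. The nuclear receptor PPARα (Ppara), which is activated by fatty acids, and its coactivator PGC-1α (Ppargc1a) drive many of these genes.

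Per length (FPKM, fragments per kilobase of transcript, scaled to library size, a level that the authors computed), the 32 genes covered a wide span in young WT hearts. Fabp3, the fatty acid binding protein of heart cytosol, was highest at 8776 ± 765 FPKM (SD, n = 4), followed by Lpl, the lipase, at 1980.2 ± 53.4 FPKM and Hadhb, the beta subunit of the trifunctional protein, at 1705 ± 102 FPKM. Angptl4, a secreted inhibitor of lipoprotein lipase, was lowest at 1.09 ± 0.183 FPKM. The muscle form of carnitine palmitoyltransferase 1, Cpt1b, stood at 303 ± 17.9 FPKM and the liver form, Cpt1a, at 14.2 ± 0.680 FPKM. The first 3 places were the same in all 4 groups, and Cd36 and Pdk4 were among the genes that changed place. By its mean Cd36 lay above Acaa2 in both aged groups and below it in both young groups. Pdk4, a kinase that switches off pyruvate dehydrogenase, stood at 127 ± 48.3 FPKM in aged KO, 100.4 ± 54.4 in aged WT, 41.2 ± 13.2 in young KO and 27.8 ± 5.48 FPKM in young WT hearts. By its mean it lay above Slc27a1 and Acot2 in both aged groups and below both in young WT hearts.

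**Figure D1:**
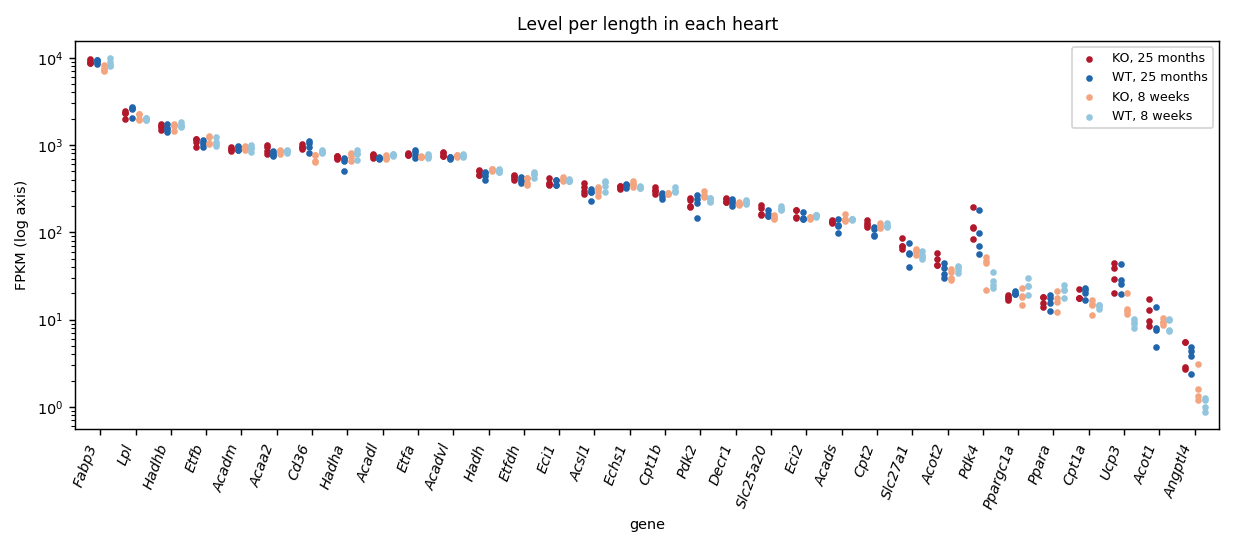
FPKM of the 32 genes (log axis) in each of the 16 hearts, with genes ordered by their mean in young WT hearts and 1 point per heart. Fabp3 lies at the top and Angptl4 at the bottom in every group, and the points of Pdk4, Ucp3 and Angptl4 are the most widely spread between the aged and the young groups.

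Total counts ran from 11456503 to 13298660 per library, of which the 32 genes took 2.95% to 3.60%. Armh4, the targeted gene, had 1 to 22 counts per library in KO hearts and 158 to 254 in WT hearts, so the genotype labels held in every heart. Markers of heart muscle were abundant, with a summed level of 70971 to 80565 CPM (counts scaled to a common library size) in aged KO, 70333 to 85014 in aged WT, 82943 to 97925 in young KO and 85745 to 96004 CPM in young WT hearts over 8 markers. The sums in aged hearts lay below those in young hearts of the same genotype in every library. Myh6 was the largest part of every sum, and that separation leans on this 1 gene. It had 28083 to 34660 CPM in aged KO, 23737 to 35401 in aged WT, 35654 to 42205 in young KO and 33290 to 43211 CPM in young WT hearts. Tnnt2 overlapped between the ages in WT hearts, at 7396 to 9377 CPM in aged and 7071 to 8253 CPM in young. In bulk tissue fewer cells of a type and less RNA per cell cannot be told apart. Summed atrial markers (4 genes) stood at 67.0 to 546 CPM in aged KO, 62.8 to 412 in aged WT, 170 to 591 in young KO and 155 to 378 CPM in young WT hearts. Most of each atrial sum was Nppa, at 56.2 to 423 CPM in aged KO and 60.5 to 409.6 CPM in aged WT hearts. The sums therefore say little about Myl4, Myl7 and Sln. Myl4 had 66.9, 48.5, 7.31 and 2.34 CPM in aged KO and 1.53 to 2.96 CPM in aged WT hearts. Myl7 had 0.323 to 39.4 CPM in aged KO and at most 0.243 CPM in aged WT hearts. Sln reached 17.3 CPM in aged KO and was near 0 in aged WT hearts. Between aged KO and aged WT hearts none of the 4 atrial markers passed by edgeR, and 3 had an unadjusted p under 0.05. The part of atrial tissue in the values of the members was not tested. Summed macrophage markers (8 genes) stood at 309 to 336 CPM in aged KO, 413 to 571 in aged WT, 176 to 225 in young KO and 153 to 207 CPM in young WT hearts. Summed erythroid markers (5 genes) stood at 897 to 1837 CPM in aged KO, 1021 to 2209 in aged WT, 616 to 1078 in young KO and 527 to 715 CPM in young WT hearts. All 5 rose with age in WT hearts, by 1.20 to 1.79 on the log2 scale, and in KO hearts none passed by edgeR and 1 had an unadjusted p under 0.05. Of the 8 white adipocyte markers only 2 passed the filter, and their sum was at most 12.3 CPM in any heart, with Lep at 0 counts in all aged hearts.

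With age, the members of the pathway moved unevenly. In KO hearts 5 of 32 genes rose and none fell at an adjusted p under 0.05 (edgeR, quasi-likelihood test, Benjamini-Hochberg adjustment over all 13373 genes, which is the rule for "rose" and "fell" throughout). Over all genes tested, 5.03% rose and 2.60% fell in that comparison. Among WT hearts 5 rose and 7 fell, against 11.8% of all genes that rose and 9.93% that fell. The share of members that rose with age was 15.6% in both genotypes, which is near the background in WT hearts, and the share that fell in WT hearts was 21.9%. The median log2 change with age was 0.02 in KO hearts (all genes, -0.01) and -0.13 in WT hearts (all genes, -0.01), and 24 of the 32 values were below 0 in WT hearts, against 14 in KO hearts. Angptl4, Pdk4 and Ucp3 rose in both genotypes, which is 60% of the members called in KO hearts and 25% of those called in WT hearts. These ageing comparisons share no library, and 22 of 32 members had the same sign in both. The counts changed when single hearts were left out. In KO hearts 0 members passed without KO_Young_53 and 1 (Eci1, lower) without KO_Aged_125. In WT hearts 4 passed, all higher, without WT_Aged_1, WT_Young_39 or WT_Young_42. By limma on log2(FPKM + 1), 6 members passed in WT hearts, with Cpt2 the 1 that fell. Calls over all genes also became fewer without KO_Young_53 or KO_Aged_125. They are not given here for the WT fits or for limma, so these drops cannot be called particular to the members.

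**Figure D2:**
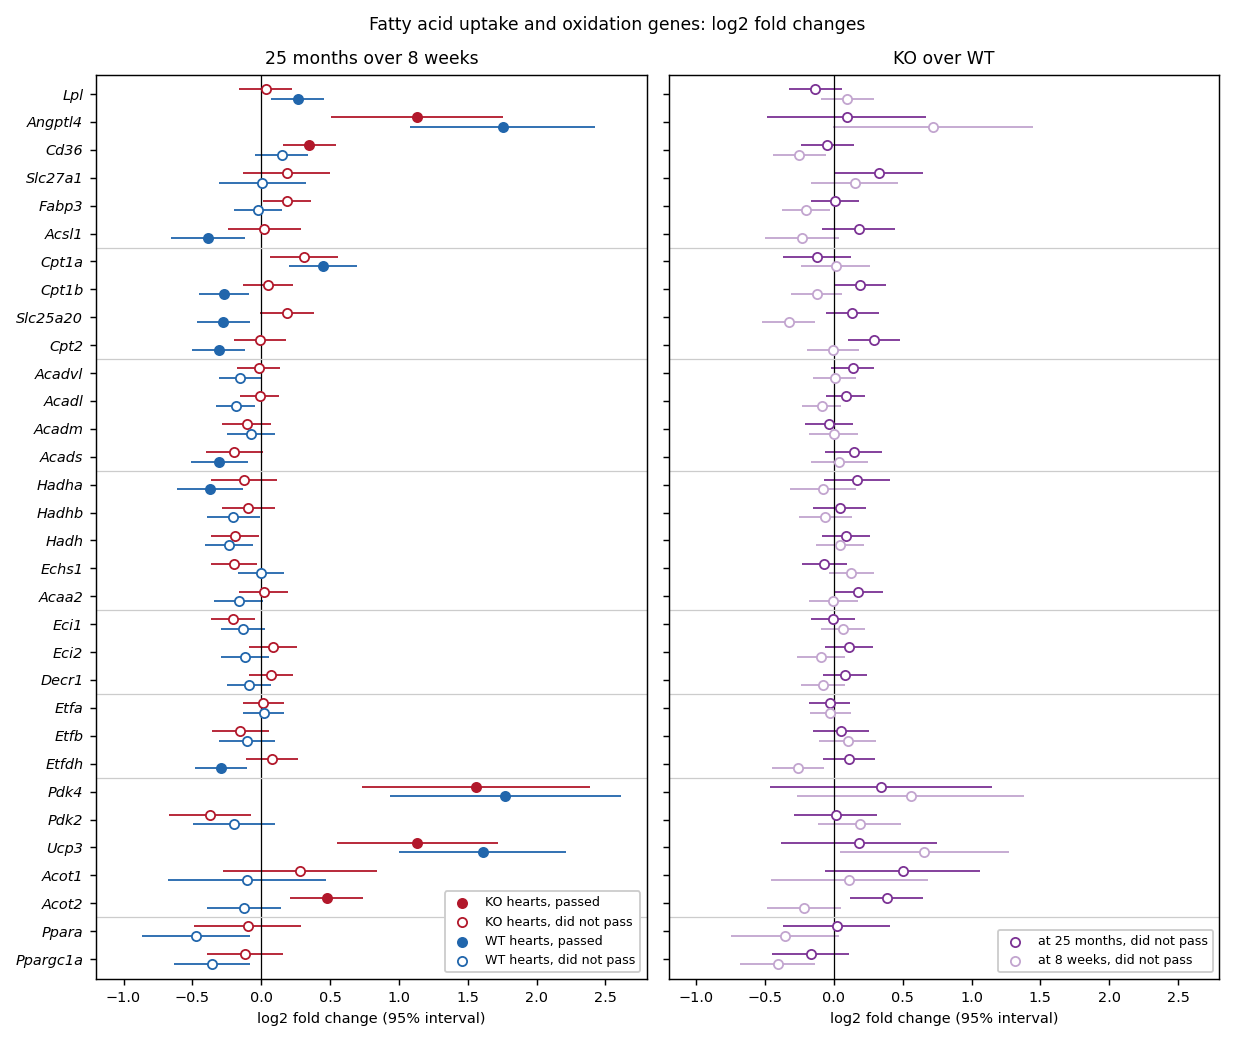
Log2 fold change of each member with its 95% interval, for 25 months over 8 weeks (left, KO hearts red and WT hearts blue) and for KO over WT (right, at 25 months dark and at 8 weeks light), with filled points for an adjusted p under 0.05. Pdk4, Ucp3 and Angptl4 lie far to the right with age in both genotypes, 7 WT points are filled to the left of 0, and no point on the right panel is filled.

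Of the 6 genes of uptake and activation, 2 rose in aged KO hearts (Angptl4 and Cd36), and in aged WT hearts 2 rose (Angptl4 and Lpl) and 1 fell (Acsl1). Angptl4 had 4.51, 8.61, 4.34 and 8.98 CPM in aged KO hearts, 6.97, 7.77, 3.97 and 6.00 in aged WT hearts, 2.19, 5.02, 2.72 and 2.08 in young KO hearts and 1.61, 1.45, 2.24 and 2.01 in young WT hearts. All 4 aged WT hearts lay above all 4 young WT hearts, whereas KO_Young_31 lay above 2 aged KO hearts. The log2 change with age was 1.13 ± 0.30 (SE) in KO hearts (adjusted p = 0.0244) and 1.75 ± 0.32 in WT hearts (adjusted p = 0.000641). Its lowest count in a library was 18, and the log2 change had a 95% interval of 0.50 to 1.75 in KO and 1.08 to 2.43 in WT hearts.

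Lpl, the target of that inhibitor, stood at 9931, 9398, 7906 and 9689 CPM in aged WT hearts and 7603, 7356, 7916 and 7869.8 CPM in young WT hearts. WT_Aged_5 lay within the young range and the other 3 aged hearts above it, for a log2 change of 0.26 ± 0.09 (adjusted p = 0.0459). In aged KO hearts Lpl had 8601, 8739, 7405 and 8852 CPM and in young KO hearts 7579, 7248, 8936 and 9111 CPM, which overlap (log2 change 0.03 ± 0.09, adjusted p = 0.887). Cd36, the fatty acid translocase of the cell membrane, rose in KO hearts, with 2256, 2355, 2415 and 2631 CPM in the aged and 1995, 1705, 2099 and 1775 CPM in the young. Every aged KO heart lay above every young KO heart (log2 change 0.35 ± 0.09, adjusted p = 0.0226). Among WT hearts Cd36 had 2792, 2394, 2136 and 2670.3 CPM when aged and 2094, 2231, 2427 and 2261 CPM when young, and the ranges overlapped (log2 change 0.15 ± 0.09, adjusted p = 0.265). Macrophages also express Lpl and Cd36, 7 of the 8 macrophage markers rose with age in KO hearts and 8 of 8 in WT hearts, and their part in the change of Lpl and Cd36 was not tested.

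Acsl1, which joins long-chain fatty acids to coenzyme A, fell in aged WT hearts, where it had 776, 994, 1039.6 and 1059 CPM, against 1013, 1368, 1449.8 and 1230.1 CPM in young WT hearts. WT_Young_29 lay within the aged range (log2 change -0.39 ± 0.13, adjusted p = 0.0354). The KO hearts ranged from 922 to 1274 CPM when aged and from 898 to 1226 CPM when young, with a log2 change of 0.02 ± 0.13. Slc27a1, a fatty acid transport protein, and Fabp3 passed in neither genotype: the log2 change of Slc27a1 with age was 0.19 in KO and 0.01 in WT hearts, and that of Fabp3 0.18 and -0.02, in the same order. Fabp3 counts were fractional in every library, so some of its reads may be shared with similar sequences.

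The carnitine shuttle split in aged WT hearts, where Cpt1a rose and the other 3 genes fell. Cpt1a, the liver form of the enzyme that hands fatty acids to carnitine, had 69.0, 67.1, 68.7 and 89.8 CPM in aged KO hearts, 64.1, 89.6, 89.4 and 77.7 in aged WT hearts, 59.7, 66.8, 63.0 and 48.1 in young KO hearts and 52.8, 58.6, 63.2 and 60.8 in young WT hearts. Aged hearts lay above young hearts of the same genotype in every case. The log2 change was 0.45 ± 0.12 in WT hearts (adjusted p = 0.0106), and in KO hearts, where it did not pass, 0.31 ± 0.12 (adjusted p = 0.127).

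Cpt1b, the muscle form, had 605, 707, 745 and 663 CPM in aged WT and 745, 793, 926 and 814 CPM in young WT hearts, a log2 change of -0.27 ± 0.09 (adjusted p = 0.0329). The ranges met only at their ends, where WT_Aged_5 and WT_Young_29 had nearly the same level. Slc25a20, the carrier of acylcarnitines across the inner membrane, had 221, 233, 226 and 256 CPM in aged WT and 268, 273, 321 and 271 CPM in young WT hearts and fell by 0.27 ± 0.09 on the log2 scale (adjusted p = 0.0399). Cpt2, which returns the fatty acid to coenzyme A inside the mitochondrion, had 183, 232, 197 and 216 CPM in aged WT and 239.6, 248, 284 and 255 CPM in young WT hearts (log2 change -0.31 ± 0.09, adjusted p = 0.0195). For Slc25a20 and Cpt2 every aged WT heart lay below every young WT heart. In KO hearts the log2 changes with age were 0.05 ± 0.09 for Cpt1b, 0.19 ± 0.09 for Slc25a20 and -0.01 ± 0.09 for Cpt2, and none passed (adjusted p of 0.248 to 0.967).

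Of the 4 acyl-CoA dehydrogenases, which start each turn of the spiral on very long, long, medium and short chains, only Acads passed. The short-chain enzyme Acads had 153, 223, 191 and 185 CPM in aged WT hearts and 218, 231, 244 and 236 CPM in young WT hearts, a log2 change of -0.30 ± 0.10 (adjusted p = 0.0332). WT_Aged_4 lay within the young range and WT_Aged_1 far below the others. In KO hearts Acads had 209, 199, 200.4 and 223 CPM when aged and 227, 216, 234 and 276 CPM when young (log2 change -0.20 ± 0.10, adjusted p = 0.257). Acadl, the long-chain enzyme, was tightly held at 1174, 1168, 1177 and 1161 CPM in aged WT hearts, all below the 1301, 1277, 1408 and 1333 CPM of young WT hearts, and missed the threshold (log2 change -0.18 ± 0.07, adjusted p = 0.0548). The log2 changes of Acadvl and Acadm were -0.15 and -0.07 in WT hearts, and all 4 enzymes had negative values in KO hearts, from -0.20 to -0.01.

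Hadha and Hadhb encode the alpha and beta subunits of the mitochondrial trifunctional protein, which carries out later steps of the spiral on long chains. The genes lie head to head: in RefSeq (build GRCm38.p6) their starts are 273 bases apart, and the stretch before Hadha (chr5:30154981-30155230, minus strand) is shown because most of it is also the stretch before Hadhb. Capitals mark the 228 of its 250 bases that also lie within 250 bases before the start of Hadhb.
Hadha: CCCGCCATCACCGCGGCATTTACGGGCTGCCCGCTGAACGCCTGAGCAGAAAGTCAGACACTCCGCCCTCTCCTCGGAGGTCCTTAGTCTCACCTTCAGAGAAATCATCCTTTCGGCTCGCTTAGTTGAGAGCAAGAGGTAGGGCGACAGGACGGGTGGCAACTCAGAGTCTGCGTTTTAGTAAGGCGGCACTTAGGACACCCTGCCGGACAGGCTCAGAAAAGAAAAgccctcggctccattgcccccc
In this window neither AGGTCA, a half-site of nuclear receptors, nor CACGTG, the E-box, was found on either strand.

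Of this pair, Hadha fell with age in WT hearts and Hadhb did not pass. Hadha had 1664, 1594, 1785 and 1844 CPM in aged KO hearts, 1181, 1571, 1717 and 1654 in aged WT hearts, 1954, 1611, 2044 and 1890.5 in young KO hearts and 1651, 1938, 2307 and 2037 in young WT hearts. In aged WT hearts WT_Aged_1 stood far below the rest, and WT_Young_29 lay within the aged range (log2 change -0.37 ± 0.11, adjusted p = 0.0241). Hadhb had 2439, 2682, 2723 and 3006 CPM in aged WT hearts and 2847, 2999, 3542 and 3094 CPM in young WT hearts, overlapping, with a log2 change of -0.20 ± 0.09 (adjusted p = 0.124). The ratio of Hadha to Hadhb CPM within a heart was 0.604, 0.635, 0.629 and 0.600 in aged KO hearts, 0.484, 0.586, 0.631 and 0.550 in aged WT hearts, 0.646, 0.619, 0.634 and 0.612 in young KO hearts, and 0.580, 0.646, 0.651 and 0.658 in young WT hearts. It was lowest in WT_Aged_1 and from 0.550 to 0.658 in the other 15 hearts, with overlap between all groups, and the difference in change between the 2 genes was not tested. In KO hearts the log2 changes with age were -0.12 ± 0.11 for Hadha and -0.09 ± 0.09 for Hadhb, neither of which passed (adjusted p = 0.586 and 0.604).

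The remaining enzymes of the spiral passed in neither genotype. Hadh, the short-chain hydroxyacyl-CoA dehydrogenase, came closest in WT hearts, with 582, 716, 679 and 724 CPM in aged and 745, 795, 859 and 779 CPM in young hearts. Every aged WT heart lay below every young one (log2 change -0.24 ± 0.08, adjusted p = 0.0503), and in KO hearts the change was -0.19 ± 0.08 (adjusted p = 0.188). Echs1, the short-chain enoyl-CoA hydratase, had a log2 change with age of -0.20 ± 0.08 in KO hearts (adjusted p = 0.141) and a 95% interval of -0.17 to 0.16 in WT hearts. Acaa2, the thiolase that releases acetyl-CoA, had 0.02 ± 0.09 in KO and -0.16 ± 0.09 in WT hearts. Eci1, Eci2 and Decr1, the isomerases and the reductase that prepare unsaturated chains, had log2 changes of -0.20 to 0.09 in KO hearts and -0.13 to -0.09 in WT hearts.

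In the electron transfer step, Etfdh fell in aged WT hearts while the flavoprotein subunits Etfa and Etfb did not pass. Etfdh, which hands the electrons to ubiquinone, had 818, 762, 894 and 879 CPM in aged KO hearts, 704, 754, 824 and 829 in aged WT hearts, 835, 731, 875 and 737 in young KO hearts and 839, 937, 1071 and 966 in young WT hearts. Each aged WT heart lay below each young WT heart (log2 change -0.29 ± 0.09, adjusted p = 0.0249), and the KO ranges overlapped (log2 change 0.08 ± 0.09). The changes of Etfa were 0.02 in KO and 0.02 in WT hearts, with a 95% interval of -0.13 to 0.17 in WT, and those of Etfb -0.15 and -0.10, in the same order. Beside these falls, the heart muscle markers Myh6 and Actc1 fell with age in WT hearts by 0.40 ± 0.11 and 0.56 ± 0.11 on the log2 scale, while the other 6 of the 8 markers did not pass. In KO hearts Myl2 was the 1 marker that fell. In each genotype 7 of the 8 had negative values, with a median log2 change of -0.22 in KO and -0.10 in WT hearts. All 5 erythroid markers rose with age in WT hearts, and their sum was highest in WT_Aged_1, at 2209 CPM, with 1021 to 1848 CPM in the other aged WT hearts. Summed macrophage markers stood at 571 CPM in WT_Aged_1 and 413 to 434 CPM in the others. Summed fibroblast markers stood at 1463 CPM in WT_Aged_1 and 784 to 1037 CPM in the others. The part of heart muscle, blood content or other cell types in the falls was not tested.

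**Figure D3:**
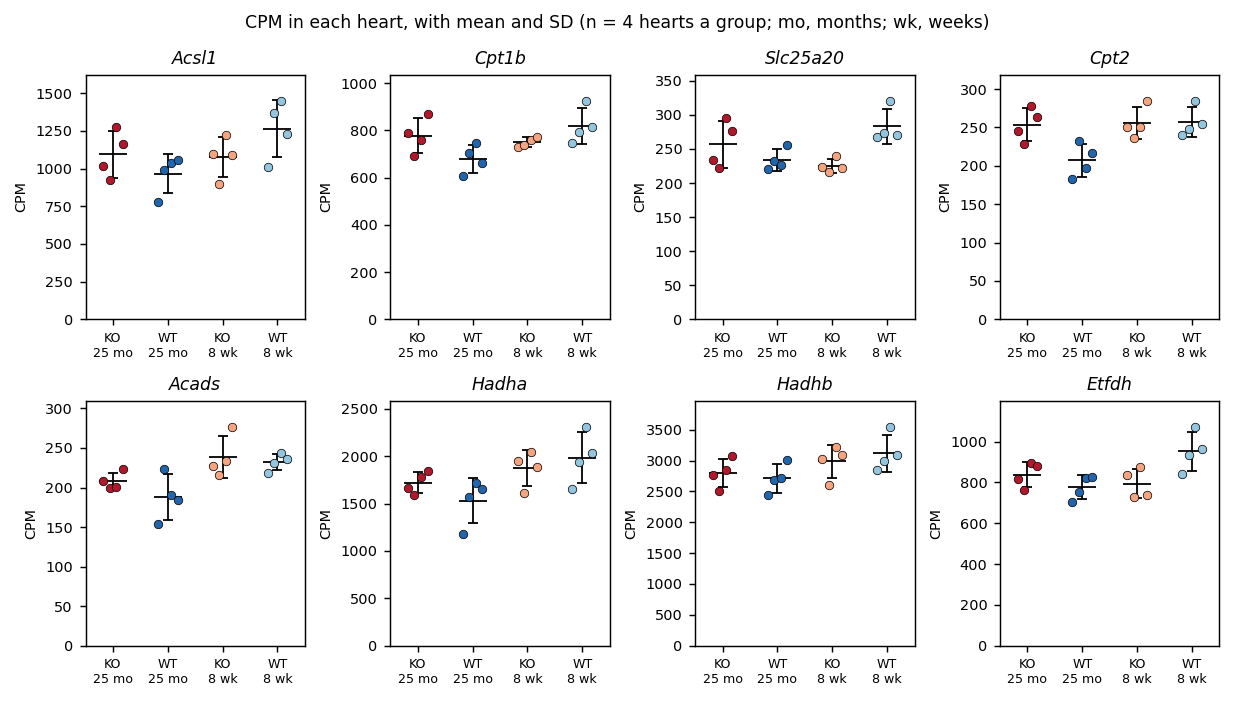
CPM in each heart (points) with the group mean and SD (bars, n = 4) for the 7 genes that fell in aged WT hearts and for Hadhb, from left to right in KO and WT hearts at 25 months and KO and WT hearts at 8 weeks. Aged WT hearts sit below young WT hearts with some overlap in Acsl1, Cpt1b, Acads, Hadha and Hadhb, and the SD bars of aged and young KO hearts overlap in all 8 genes.

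Among the genes of the fuel switch Pdk4 and Ucp3 rose in both genotypes, and Pdk4 had the largest log2 change of the 32 members in each. Pdk4 had 257, 339, 363 and 622 CPM in aged KO hearts, 213, 550.2, 183 and 299 in aged WT hearts, 148, 141, 173 and 74.7 in young KO hearts and 77.8, 89.5, 121 and 76.3 in young WT hearts. Every aged heart exceeded every young heart of its genotype, and the aged hearts were widely spread, with KO_Aged_125 and WT_Aged_4 highest. The log2 change with age was 1.56 ± 0.38 in KO hearts (2.95-fold, adjusted p = 0.0256) and 1.77 ± 0.39 in WT hearts (3.41-fold, adjusted p = 0.00569).

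Ucp3, a mitochondrial carrier of muscle and heart whose expression follows fatty acid supply, had 42.6, 81.2, 62.7 and 95.6 CPM in aged KO hearts, 41.1, 92.2, 62.1 and 53.1 in aged WT hearts, 27.3, 44.4, 30.04 and 26.6 in young KO hearts and 17.1, 20.8, 20.8 and 22.8 in young WT hearts. Aged and young WT hearts did not overlap, while KO_Young_31 lay above KO_Aged_114. The log2 change was 1.13 ± 0.27 in KO hearts (2.19-fold, adjusted p = 0.0211) and 1.61 ± 0.28 in WT hearts (3.05-fold, adjusted p = 0.00108). Pdk2, the other pyruvate dehydrogenase kinase among the members, did not pass in either genotype. It had 456, 374, 394 and 486 CPM in aged KO and 511, 514, 559.5 and 629 CPM in young KO hearts. Every aged KO heart lay below every young one (log2 change -0.37 ± 0.14, adjusted p = 0.127). In WT hearts the change was -0.20 ± 0.14 (adjusted p = 0.346). The kinases Pdk1 and Pdk3, measured outside the members, did not pass with age in either genotype.

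Acot2, a mitochondrial thioesterase that splits acyl-CoA, rose in aged KO hearts, with 79.7, 77.9, 92.4 and 111 CPM against 67.6, 54.3, 76.3 and 61.8 CPM in young KO hearts. No aged KO heart overlapped the young ones (log2 change 0.47 ± 0.13, adjusted p = 0.0268). In WT hearts Acot2 had 62.0, 82.9, 59.2 and 72.8 CPM when aged and 69.9, 78.5, 85.1 and 68.8 CPM when young, which overlap (log2 change -0.13 ± 0.13, adjusted p = 0.516). Acot1, its near-identical cytosolic neighbour, had 15.3 ± 5.29 CPM in aged KO, 10.8 ± 4.73 in aged WT, 12.5 ± 1.18 in young KO and 11.6 ± 2.16 CPM in young WT hearts (SD, n = 4). The counts of Acot1 and Acot2 were fractional, reads may be split between them, and the values of both are uncertain for that reason.

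**Figure D4:**
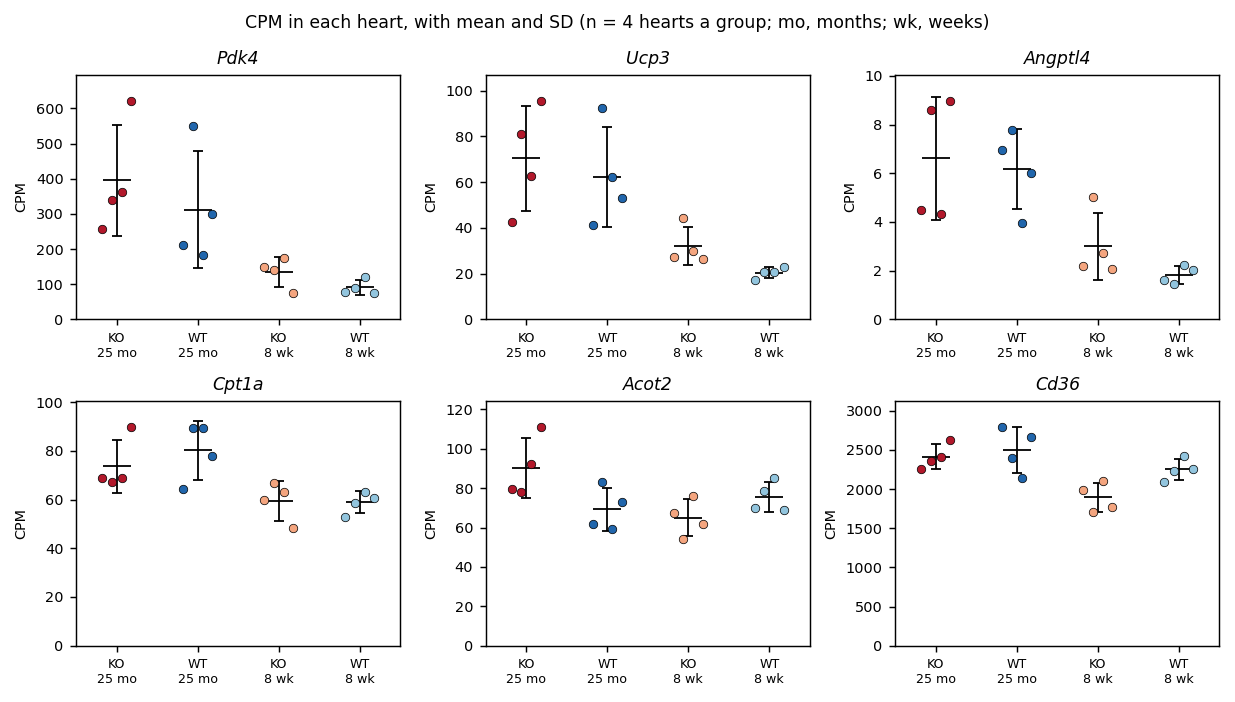
CPM in each heart (points) with the group mean and SD (bars, n = 4) for Pdk4, Ucp3, Angptl4, Cpt1a, Acot2 and Cd36, in KO and WT hearts at 25 months and then at 8 weeks. The means of both aged groups lie above those of both young groups in Pdk4, Ucp3, Angptl4 and Cpt1a, Acot2 has its highest mean in aged KO hearts, and Cd36 has its lowest in young KO hearts.

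Stretches before the starts of 3 genes that were higher in aged hearts are shown because PPARα and related receptors bind direct repeats of AGGTCA. RefSeq promoter sequences (build GRCm38.p6; the authors' counts were made on GRCm39) were at hand for 27 of the 32 members, as 250 bases before each start, and capitals mark AGGTCA or its reverse complement. The windows are chr6:5496279-5496528, minus strand for Pdk4, chr7:100472741-100472990, plus strand for Ucp3 and chr19:3323051-3323300, plus strand for Cpt1a.
Pdk4: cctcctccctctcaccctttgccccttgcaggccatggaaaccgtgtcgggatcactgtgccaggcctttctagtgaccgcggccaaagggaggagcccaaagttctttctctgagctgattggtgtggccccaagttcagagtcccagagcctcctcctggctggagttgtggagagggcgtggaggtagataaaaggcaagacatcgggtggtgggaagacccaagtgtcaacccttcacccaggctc
Ucp3: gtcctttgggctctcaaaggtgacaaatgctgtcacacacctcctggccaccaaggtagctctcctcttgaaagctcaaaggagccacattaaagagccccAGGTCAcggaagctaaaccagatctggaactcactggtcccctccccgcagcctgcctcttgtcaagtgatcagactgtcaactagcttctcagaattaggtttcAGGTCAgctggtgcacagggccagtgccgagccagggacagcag
Cpt1a: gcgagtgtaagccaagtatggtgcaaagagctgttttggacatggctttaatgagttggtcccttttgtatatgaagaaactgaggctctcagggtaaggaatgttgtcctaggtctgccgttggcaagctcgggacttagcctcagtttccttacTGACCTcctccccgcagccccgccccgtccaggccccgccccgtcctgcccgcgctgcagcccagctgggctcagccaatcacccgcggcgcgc
Ucp3 held AGGTCA on its own strand at 149 to 144 and at 44 to 39 bases before the start, Cpt1a held it on the opposite strand at 94 to 89 bases, and Pdk4 had none in this window. With both strands searched, AGGTCA was found in 6 of the 27 members (Acadm, Acadvl, Cd36, Cpt1a, Echs1 and Ucp3). These were 6 of the 31 windows of the members, and it was found in 14% of all 32851 windows of that length. The repeat AGGTCANAGGTCA, which contains the half-site, was in no member and in 0.0335% of all windows, and CACGTG, which overlaps neither, was in Pdk2 and Slc27a1 and in 6.02% of all windows. These matches describe letters only, and of the genes that changed with age Angptl4, Lpl and Cpt1b were not in the promoter set used here.

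The regulators themselves did not pass in any comparison. Ppara had 124.9, 91.2, 125.3 and 108 CPM in aged KO hearts, 83.0, 105, 128 and 128 in aged WT hearts, 111, 83.1, 156 and 131 in young KO hearts and 119, 153, 187 and 156 in young WT hearts. Its log2 change with age was -0.10 ± 0.18 in KO hearts (adjusted p = 0.815) and -0.47 ± 0.18 in WT hearts (adjusted p = 0.0771), with WT_Young_29 inside the aged range. Ppargc1a had 99.9, 105, 116 and 109 CPM in aged KO hearts, 125.2, 118, 125.1 and 116 in aged WT hearts, 113.7, 89.6, 146 and 117 in young KO hearts and 116, 154, 161 and 190.0 in young WT hearts. The aged WT hearts were close to each other and the young ones spread, for a log2 change of -0.36 ± 0.13 in WT hearts (adjusted p = 0.0575) and -0.12 ± 0.13 in KO hearts (adjusted p = 0.657).

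Between KO and WT hearts no member passed at either age by edgeR. In aged hearts (KO against WT) 4 of 32 members had an unadjusted p under 0.05, or 12.5%, against 10.9% of all genes, where 0.165% were called higher and 0.710% lower, and DESeq2 called no member and 1.81% of all genes. The median log2 difference of the members was 0.09 (all genes, 0.00), with 24 of 32 above 0. Cpt2 had the lowest adjusted p, with 245, 228, 278 and 263 CPM in the KO hearts and 183, 232, 197 and 216 CPM in the WT hearts, for a log2 difference of 0.29 ± 0.09 (adjusted p = 0.162). KO_Aged_115 lay within the WT range, and the other 3 aged KO hearts above it. Acot2 averaged 90.3 ± 15.3 CPM in the KO and 69.2 ± 10.8 CPM in the WT hearts at 25 months (SD, n = 4; log2 difference 0.38 ± 0.13, adjusted p = 0.203). The log2 difference of Pdk4 was 0.34 ± 0.37, with a wide 95% interval of -0.46 to 1.15.

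In young hearts (KO against WT) 6 members, or 18.8%, had an unadjusted p under 0.05, against 11.0% of all genes, where 0.0523% were called higher and 0.217% lower. Slc25a20 had 224, 216, 240.2 and 222 CPM in young KO and 268, 273, 321 and 271 CPM in young WT hearts. All young KO hearts lay below all young WT hearts, yet the log2 difference of -0.33 ± 0.09 did not pass by edgeR (adjusted p = 0.165). DESeq2 called it, alone of the 32, with an adjusted p of 0.0402, where 1.26% of all genes were called. Ppargc1a stood at 117 ± 23.3 CPM in young KO and 155 ± 30.7 CPM in young WT hearts (SD, n = 4), a log2 difference of -0.41 ± 0.13 (adjusted p = 0.240), and Etfdh at 795 ± 71.9 CPM and 953 ± 95.6 CPM, in the same order (log2 difference -0.26 ± 0.09, adjusted p = 0.288). Cd36, Fabp3 and Ucp3 were the other 3, with log2 differences of -0.25, -0.20 and 0.66.

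Whether KO and WT hearts aged differently was tested as a difference of 2 log2 changes, the one with age in KO hearts less the one with age in WT hearts. No member passed by edgeR, and 6 of 32, or 18.8%, had an unadjusted p under 0.05, against 12.2% of all genes, where 0.127% were called higher and 0.336% lower. These 6 were Acsl1, Cpt1b, Slc25a20, Cpt2, Etfdh and Acot2, all with positive values, from 0.30 to 0.60 on the log2 scale. Slc25a20 had a difference of 0.46 ± 0.13 (edgeR adjusted p = 0.129; DESeq2 adjusted p = 0.0392, with 1.51% of all genes called) and Acot2 one of 0.60 ± 0.18 (adjusted p = 0.155). The differences of the 3 genes that rose in both genotypes were -0.21 ± 0.53 for Pdk4, -0.48 ± 0.39 for Ucp3 and -0.63 ± 0.44 for Angptl4, with a 95% interval of -1.55 to 0.30 for Angptl4. The calls made with age in 1 genotype alone, such as those of Acsl1, Hadha, Lpl and Cd36, were therefore not shown to differ between genotypes by edgeR.

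Single hearts stood out across many members at once. WT_Young_39 had the highest CPM of its group in 28 of 32 members and KO_Aged_125 in 24, while KO_Young_31 was lowest in 19, KO_Aged_115 in 18, WT_Young_29 in 17 and WT_Aged_1 in 16. Of all genes tested, WT_Aged_1 was highest of its group in 34.02% and WT_Young_29 in 32.7%, which are the highest shares of the 16 hearts, WT_Young_39 in 28.7% and KO_Aged_125 in 26.7%. WT_Young_39 had the lowest scaling factor between libraries, 0.934, and without that scaling it was highest in 21 members, as was KO_Aged_125. The lowest ranks also depended on scaling. Without it KO_Young_31 was lowest in 14 members, KO_Aged_115 in 13, WT_Young_29 in 16 and WT_Aged_1 in 14, and KO_Young_53 went from 4 to 11. How often each heart was lowest over all genes was not counted, so these lowest ranks cannot be called particular to the members. WT_Aged_4 was highest of its group in 11 members and in 22.3% of all genes. Of these 11 members 10 were also among the 24 of KO_Aged_125, namely Angptl4, Slc27a1, Cpt1a, Acads, Acaa2, Pdk4, Pdk2, Ucp3, Acot1 and Acot2. With 24 of 32 members highest in KO_Aged_125, a large overlap can arise without any relation. The overlap over all genes was not counted, and a relation between these 2 hearts was not tested.

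**Figure D5:**
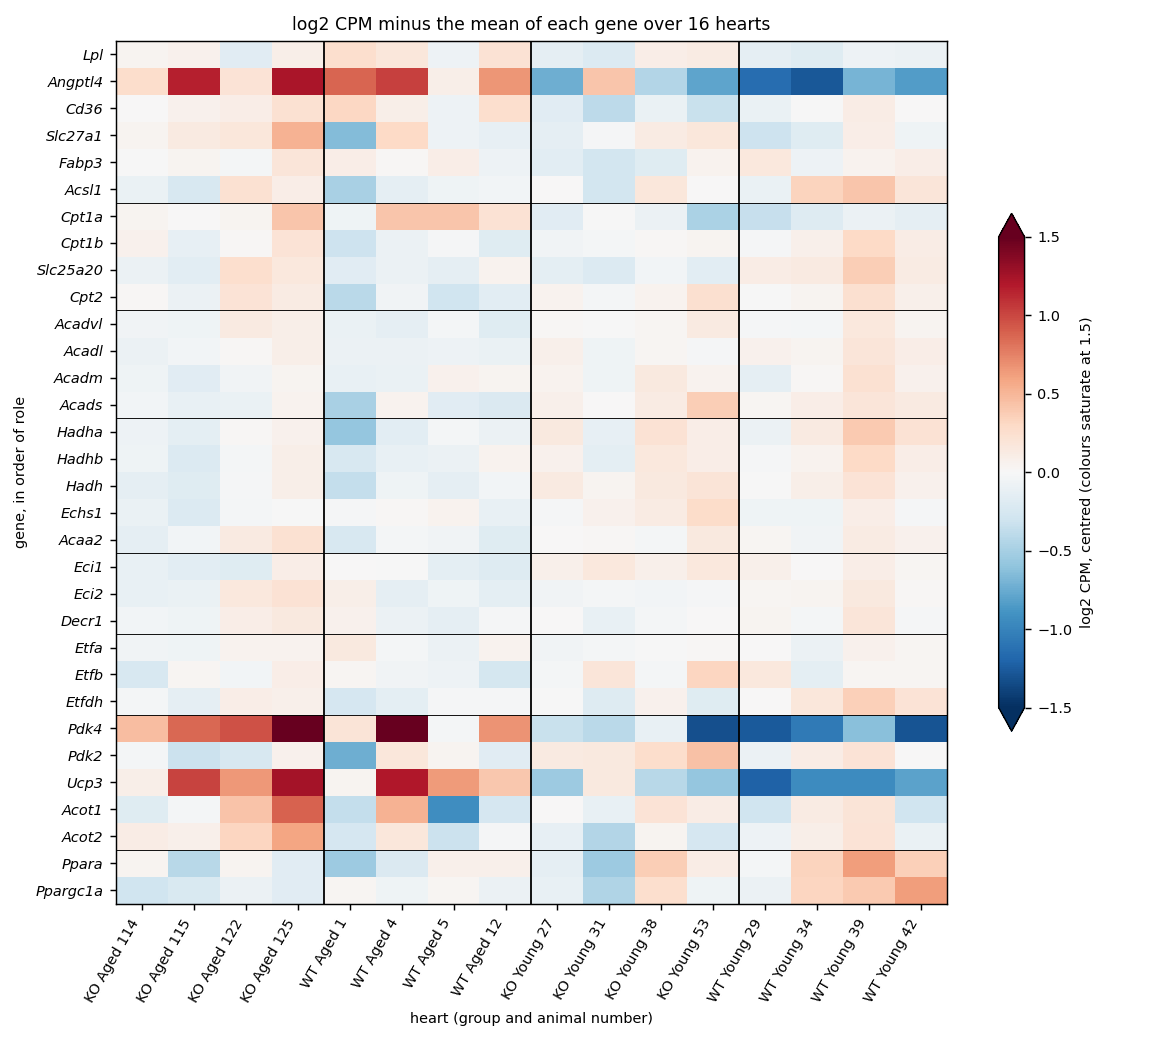
Log2 CPM of the 32 members (rows, by role) in the 16 hearts (columns, KO and WT at 25 months, then KO and WT at 8 weeks), each gene centred on its mean over all hearts, with colours saturating at 1.5. Pdk4, Ucp3 and Angptl4 are red in most aged and blue in most young hearts, the column of WT_Young_39 is red in most rows, and WT_Aged_1 is blue in Hadha, Acads, Acsl1, Cpt2 and Pdk2.

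The calls changed to different degrees when 1 heart was left out. In WT ageing Angptl4, Cpt1a, Pdk4 and Ucp3 passed in each of the 8 fits that left out 1 heart, with adjusted p up to 0.0327, and their lowest log2 changes in those fits were 1.64, 0.39, 1.36 and 1.37. All 7 falls lost their call without WT_Aged_1, without WT_Young_39 or without WT_Young_42, where 4 members remained called each time. Hadha had a log2 change of -0.25 without WT_Aged_1 (adjusted p = 0.0891), -0.29 without WT_Young_39 and -0.35 without WT_Young_42. Lpl passed only without WT_Aged_5, with adjusted p up to 0.0923 in the other 7 fits. In KO ageing no member passed without KO_Young_53 and none of the 5 rises without KO_Aged_125, where the adjusted p of Pdk4 was 0.0677 and 0.0728, while their log2 changes over all 8 fits stayed above 0, between 1.25 and 1.72 for Pdk4, 0.95 and 1.33 for Ucp3, and 0.30 and 0.40 for Cd36.

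Of 101 further genes of fatty acid handling, 98 were tested. In KO hearts 7 rose (7.14%) and 5 fell (5.1%) with age, against 5.03% and 2.60% of all genes. In WT hearts 8 rose (8.16%) and 11 fell (11.2%), against 11.8% and 9.93% of all genes, with median log2 changes of -0.01 in KO hearts and -0.06 in WT hearts. Bdh1, which interconverts the 2 main ketone bodies, had 305, 239, 233 and 222 CPM in aged KO, 268, 263, 286 and 263 in aged WT, 86.9, 75.1, 93.0 and 119.8 in young KO and 117, 84.3, 82.6 and 113 CPM in young WT hearts. Aged hearts were far above young ones in both genotypes, with log2 changes of 1.41 ± 0.14 in KO (adjusted p = 5.19e-06) and 1.45 ± 0.14 in WT hearts (adjusted p = 1.18e-06). The lipid droplet coat gene Plin2 rose by 0.38 ± 0.07 and 0.40 ± 0.07, the peroxisomal enzyme gene Ehhadh by 0.45 ± 0.12 and 0.51 ± 0.12, Acsl6 by 0.35 ± 0.10 and 0.67 ± 0.10, and Fabp4, a fatty acid binding protein of endothelium, adipocytes and macrophages, by 0.56 ± 0.15 and 0.82 ± 0.15, in KO and WT hearts in that order.

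Falls among these further genes in both genotypes were seen in Lpin1, a phosphatase that also acts as a coactivator of PPARα, with log2 changes of -0.51 ± 0.14 in KO and -0.68 ± 0.14 in WT hearts, and in the thioesterase Acot7, with -0.43 ± 0.11 and -0.32 ± 0.11. In WT hearts the nuclear receptor Esrra, a partner of PGC-1α, fell by 0.26 ± 0.09 (adjusted p = 0.0372), the lipid droplet gene Plin5 by 0.49 ± 0.12, Dlat, a subunit of pyruvate dehydrogenase, by 0.33 ± 0.09, and Crat, carnitine acetyltransferase, by 0.43 ± 0.12. Their values in KO hearts were 0.04, 0.09, -0.08 and -0.22, and none passed there. In KO hearts Pccb, Phyh and Rxrg fell by 0.42 ± 0.10, 0.25 ± 0.07 and 0.35 ± 0.10 on the log2 scale, with values of -0.21, -0.06 and -0.23 in WT hearts that did not pass. The difference in ageing between genotypes passed for none of the 98 genes by edgeR, and 7 (7.14%) had an unadjusted p under 0.05, against 12.2% of all genes. Between genotypes 1 of the 98 changed, Cidea, with 29.3, 24.1, 22.7 and 24.9 CPM in young KO and 42.7, 35.6, 41.9 and 31.5 CPM in young WT hearts (log2 difference -0.59 ± 0.12, adjusted p = 0.0486).

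Genes of the circadian clock, which in the heart also paces fatty acid genes, were followed in the same comparisons. Of 15 tested in KO hearts 11 did not pass, Per2 and Cry1 rose by 0.54 ± 0.16 and 0.44 ± 0.12, and Arntl and Npas2 fell by 1.75 ± 0.37 and 1.10 ± 0.29 on the log2 scale (13.3% in each direction, against 5.03% and 2.60% of all genes). In WT hearts Hlf fell by 0.74 ± 0.16 (adjusted p = 0.00356) and the other 14 did not pass. That is 6.67% of the clock genes, below the 9.93% of all genes that fell in that comparison. Between KO and WT hearts none of the 15 passed by edgeR at either age. At each age 6 (40%) had an unadjusted p under 0.05, against 10.9% of all genes in aged and 11.0% in young hearts. In the test of the difference in ageing between genotypes none of the 15 passed by edgeR, and 9 (60%) had an unadjusted p under 0.05, against 12.2% of all genes. Among aged WT hearts WT_Aged_1 stood apart, with a clock gene sum of 906 CPM against 1251 to 1338 CPM in the others. It had 74.7 CPM of Dbp against 144 to 164 CPM, and 6.16 CPM of Arntl against 1.92 to 5.15 CPM. The sources used here do not give the hour of collection, and its part in the values of Pdk4, Ucp3 and the other members was not tested.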

How the data were processed

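Bulk RNA sequencing of 16 mouse hearts gave the deposited tables. HISAT, Bowtie2 and GRCm39 are named per the submitters' processing notes, and the sources used here name no counting program. Expected counts per gene, as deposited by the authors, were rounded to whole numbers. FPKM values deposited by the authors were used for levels between genes and for 1 alternative test.

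Genes were filtered on low counts (filterByExpr), libraries were scaled by TMM, and 5 comparisons were fitted in 1 model over all 16 libraries with edgeR 4.0.16 (robust quasi-likelihood test, 12 residual degrees of freedom, R 4.3.3), with Benjamini-Hochberg adjustment over 13373 genes. The standard error is that of the log2 fold change. CPM are counts scaled to a common library size after TMM. The model was tested on simulated data, with counts drawn independently and changes larger than the falls of the members. That test therefore does not bear on those falls. Alternatives used DESeq2 1.42.0, other size factors, no filter, only the groups compared, and limma 3.58.1 on log2 of the deposited FPKM with a pseudocount of 1 or 0.1. DESeq2 was run on the same counts.

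The members and lists were chosen with earlier results of these data known. All members may be named, and of other lists up to 3 called genes per direction and comparison.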

Additional observations from a re-analysis of the deposited data

Results flagged for a closer look

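In 2 of 128 sets of 4 hearts (32 members in 4 groups), a single heart stood apart from the other 3 by Dixon's test, where chance gives about 1 in 20 sets. Cpt1a had 89.8 CPM in KO_Aged_125, and the other aged KO hearts had 67.1 to 69.0 CPM. Slc25a20 had 321 CPM in WT_Young_39, and the other young WT hearts had 268 to 273 CPM. KO_Aged_125 had the highest CPM of its group in 24 of the 32 members and WT_Young_39 in 28. The part of these hearts as a whole in the values of both genes was not tested.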

How the results depend on the processing

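The 4 hearts per group limit what these calls can carry. DESeq2 called 1 member (Slc25a20) in young KO against young WT hearts and 1 in the difference in ageing between genotypes, where edgeR called 0. In WT ageing, where edgeR called 12, limma on log2(FPKM + 1) and on log2(FPKM + 0.1) called 6 each, and a fit of the WT hearts alone called 5; the cause was not tested. A fit of the KO hearts alone lost the ageing calls of Angptl4 (adjusted p = 0.0639) and Ucp3 (adjusted p = 0.0626), and Lpl lost its WT call with no filter on low counts (edgeR adjusted p = 0.0660). With 1 heart left out the count was 0 to 5 in KO ageing and 4 to 13 in WT ageing. It was 0 without KO_Young_53, 1 without KO_Aged_125, 2 without KO_Young_27 or KO_Young_31, and 3 without KO_Aged_115 or KO_Young_38. In WT ageing it was 4 without WT_Aged_1, WT_Young_39 or WT_Young_42, 5 without WT_Young_34 and 6 without WT_Aged_4. Over all genes, 1020 were called in KO ageing, 644 without KO_Young_53 and 726 without KO_Aged_125. Calls over all genes are not given here for these other fits of WT ageing. The lower member counts there cannot be called particular to the members. No called member changed direction in any fit run. Fits without the robust step of edgeR were added after seeing the data. No paired analysis was possible because the groups share no animal numbers.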
